A study of Sus scrofa with 20 samples.

Results

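Cytosolic ribosomal proteins are the proteins of the ribosome that translates nuclear messenger RNA. Their transcripts were examined in backfat, the subcutaneous fat of the back, of 20 Italian Large White pigs. Members were the loci whose Ensembl identifier named a single pig gene with a ribosomal protein symbol of the large subunit (RPL) or the small subunit (RPS), with the RPS6 kinases left out. The rule found 27 of 23483 loci, of which 12 belonged to the large and 15 to the small subunit. A further 31 of the 58 symbols in the gene name table that meet the rule, among them RPLP0, RPLP1, RPSA and RPS27A, had no locus of their own under the rule and were not analysed here. All 27 passed the filter on low counts.

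The 10 females were 235 to 250 days old at slaughter and the 10 castrated males 233 to 249 days. All shared the breed, housing, diet and a slaughter weight of 150 to 160 kg, and each gave 1 library of oligo-dT selected RNA, read as 100 bp pairs. Libraries are numbered within each labelled sex in the order of deposit, and equal numbers pair no animals.

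The libraries held 25754778 to 51248122 counts each (median 36922247). Adipocyte markers summed to between 4329 and 38708 CPM (counts scaled to the size of the library), lowest in castrated male 1, which also had the highest macrophage marker sum. The libraries labelled female 10 and castrated male 10 had the lowest totals, and their submitters' numbers stand apart from the consecutive run of the other 18. With both left out, 18 loci differed between the sexes (edgeR quasi-likelihood test, Benjamini-Hochberg adjusted p under 0.05). At these loci the library labelled female 10 lay nearer the castrated male mean at 16 of 18, and the library labelled castrated male 10 nearer the female mean at 17 of 18. Labels were kept as given, and results that rest on these libraries are given with and without them. Differences in whole tissue RNA do not separate fewer cells of a type from less RNA per cell.

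The small subunit decodes the messenger and the large subunit forms the peptide bonds. Each is assembled in the nucleolus from ribosomal RNA and proteins that are needed in matched amounts, most of them in a single copy per ribosome. Ribosomal protein messengers begin with a pyrimidine tract at the cap, through which mTOR signalling adjusts their translation. A few genes are copies of another ribosomal protein gene, usually expressed at a low level or in few tissues. Among the members these were RPL10L, RPL26L1, RPL36AL, RPL7L1 and RPS27L, and the genes they resemble (RPL10, RPL26, RPL36A, RPL7 and RPS27) were not analysed here.

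Per length of transcript, the 22 members other than the named copies ranked among the most abundant transcripts of backfat. Their mean levels ran from 359 FPKM (fragments scaled to transcript length and sequencing depth) for RPL14 to 2749 FPKM for RPS12, with a median of 1126 FPKM against 1.98 FPKM over all 23483 loci. Of the 22, 16 stood among the 100 loci of highest mean FPKM and 21 among the highest 200, and RPL14 was the exception at rank 243. The 5 copies had a median of 22.6 FPKM.

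**Figure D1:**
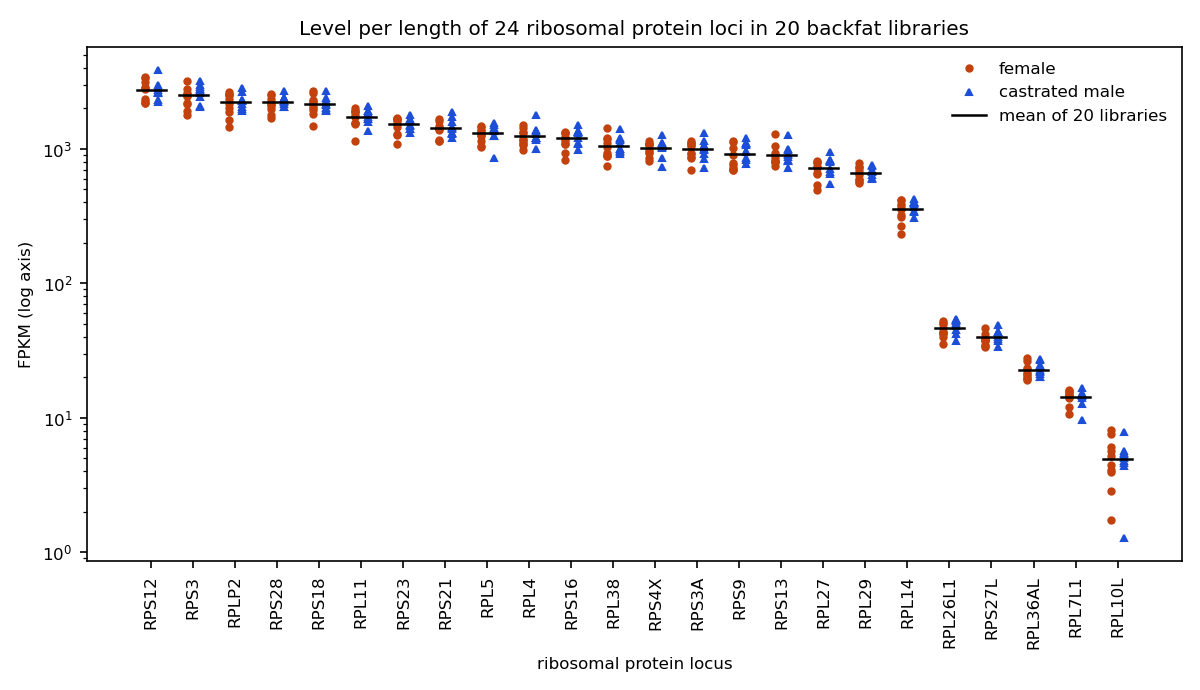
FPKM (vertical log axis) of 24 ribosomal protein loci in every library, with females as circles, castrated males as triangles and the mean of 20 libraries as a line. The 19 loci on the left have means of 359 to 2749 FPKM, and the 5 named copies on the right have means of 4.97 to 46.5 FPKM.

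Among small subunit proteins, RPS12 (ENSSSCG00000004177), in the beak of the subunit, had the highest mean, at 2749 ± 448 FPKM (SD, n = 20 here and for the other means of this scale), from 2180 in the library labelled female 10 through a median of 2739 to 3824 in castrated male 5. RPS3, which lines the entry of the messenger channel and also acts in DNA repair, followed at 2518 ± 395 FPKM, with a lowest value of 1793, a median of 2560 and a highest value of 3175. RPS28, near the exit of that channel, had 2211 ± 248 FPKM and RPS18, in the head of the subunit, had 2164 ± 293 FPKM. The ranges of these 4 overlapped, but RPS12 was above RPS18 within every library, as in female 3 at 2188 against 1928 FPKM. RPS12 was not the highest in every library. In castrated male 1 it had 2308 FPKM, against 2397 for RPS28 and 2421 for RPS3. RPS23, at the decoding centre, had 1514 ± 176 FPKM, and RPS21 had 1418 ± 197 FPKM. RPS16, whose tail reaches the peptidyl site, had 1196 ± 168 FPKM and the X-linked RPS4X had 1012 ± 127 FPKM. RPS3A, RPS9 and RPS13 lay between 902 and 989 FPKM.

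Among large subunit proteins, RPLP2 led at 2214 ± 352 FPKM. It is an acidic protein of the stalk that recruits elongation factors. It ranged from 1448 in female 2 through a median of 2257 to 2831 in the library labelled castrated male 10. By CPM the latter library was instead the lowest of the castrated males for RPLP2, at 934 against a castrated male median of 1126. RPL11 and RPL5, which join the 5S ribosomal RNA and can bind MDM2, had 1726 ± 231 and 1302 ± 176 FPKM. RPL4, a protein of the peptide exit tunnel, had 1245 ± 186 FPKM and RPL38, known for a role in the translation of Hox messengers, had 1056 ± 177 FPKM. RPL27 and RPL29 stood at 725 and 664 FPKM. The medians of the 8 large and 14 small subunit genes outside the copies were close, at 1150 and 1104 FPKM.

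In FPKM the copies were lower by a wide margin and did not overlap the others in any library. In CPM RPS27L overlapped RPS21, at 107 against 106 in female 2. RPL26L1 had 46.5 ± 5.60 FPKM and RPS27L, a p53 target, had 39.7 ± 4.21 FPKM. RPL36AL had 22.6 ± 2.75 FPKM, and RPL7L1, a factor of large subunit assembly, had 14.2 ± 1.78 FPKM. RPL10L, known for its expression in the testis, had 4.97 ± 1.76 FPKM, from 1.28 in the library labelled castrated male 10 through a median of 5.10 to 8.09 in female 8. Ribosomal protein genes have many near-identical processed copies in mammalian genomes, and no label says how reads matching several of them were assigned. The levels of all 27 members are uncertain to that extent, and the locus of RPS13 also spans 2 Ensembl identifiers.

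Counts without regard to length gave another order. Among the highest by CPM were RPL4 at 1733 ± 208, RPS4X at 1514 ± 149, RPL5 at 1342 ± 128, RPS3A at 1249 ± 138 and RPLP2 at 1091 ± 167. The 6 lowest were RPL10L at 2.55, RPL26L1 at 34.5, RPL36AL at 42.9, RPL7L1 at 87.3, RPS27L at 109 and RPS21 at 123 CPM. Across the 22 genes other than the copies, Spearman's rho between mean CPM and mean FPKM was 0.259, a description over genes of the same libraries. The ratio of depth-scaled counts to FPKM, which has the dimension of a length, differed widely between members. It would equal the length used for scaling only if both deposited tables counted the same fragments, which was not tested. The ratio was 87.7 bases for RPS21, 155 for RPS16, 240 for RPS28 and 268 for RPS3, against 1505 for RPS4X and 1402 for RPL4. The highest ratios were those of named copies, at 6181 for RPL7L1, 2767 for RPS27L and 1898 for RPL36AL. By CPM RPS3, RPS28, RPS16 and RPS21 ranked 11, 16, 21 and 22 of 27.

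The summed level of the 27 loci differed between animals by 1.47-fold. It averaged 17206 ± 1656 CPM (n = 20) and took 1.72% of all counts, from 1.41% in female 3 to 2.19% in castrated male 5. Females had 14475, 16828 and 18981 CPM as their lowest, median and highest sums and castrated males 15817, 17526 and 21257 CPM, so the sexes overlapped over most of their range. Female 3 was lowest and castrated male 5 highest with TMM factors, with upper-quartile factors (1.53-fold), with library totals alone (1.56-fold) and with mitochondrial loci left out (1.47-fold). The lowest library differed on 2 other scales, with castrated male 5 still highest. By summed FPKM the library labelled female 10 was lowest, at 22750 against 23793 in female 3. As a share of non-mitochondrial counts female 2 was lowest, at 1.76% against 1.80% in female 3. Mitochondrial loci took 21.7% of counts in female 3 and 11.5% in castrated male 5, against 8.49 to 26.3% over all libraries.

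**Figure D2:**
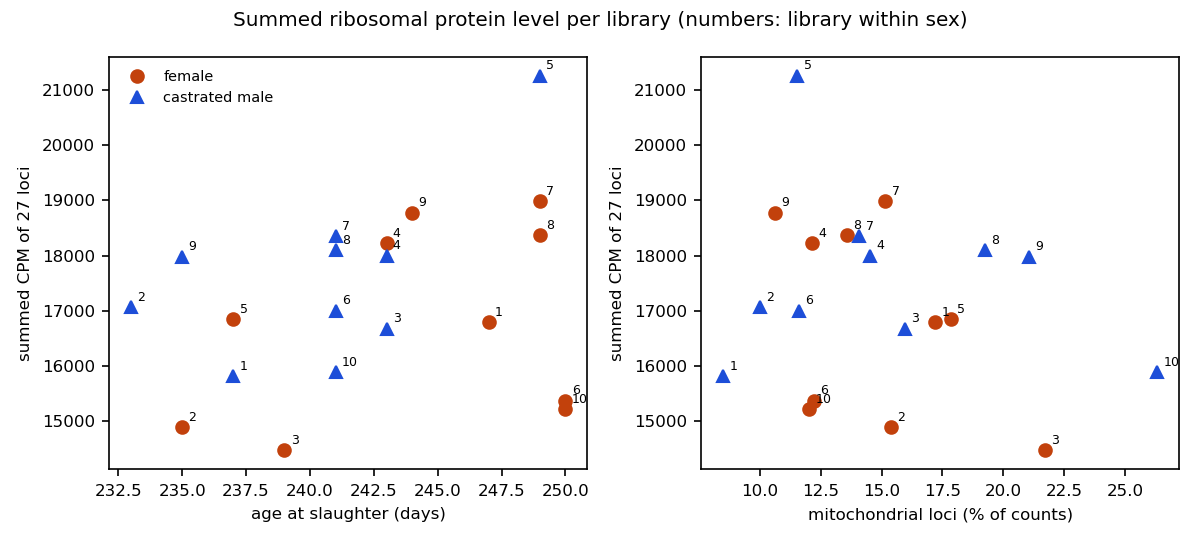
Summed CPM of the 27 loci in each library (vertical axis) against age at slaughter in days and against the share of counts at mitochondrial loci, with females as circles and castrated males as triangles, each numbered. Castrated male 5 is highest at 21257 CPM at an age of 249 days, and female 3 is lowest at 14475 CPM at 239 days.

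Small and large subunit genes kept a nearly fixed ratio. The summed CPM of the 15 small subunit loci over that of the 12 large subunit loci was 1.47 ± 0.045 (n = 20), from 1.35 in the library labelled female 10 to 1.54 in castrated male 6. The ratio thus ranged over 1.15-fold, while the small subunit sum ranged over 1.47-fold and the large subunit sum over 1.47-fold.

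Castrated male 5 had the highest CPM of all 20 libraries at 18 of the 27 loci and stood among the highest 3 at 22. At RPL4 it had 2384 CPM, against a castrated male median of 1728. At RPS12 it had 1326 CPM against a castrated male median of 943, and at RPS13 779 CPM against 566. RPL14, RPS16 and RPL36AL did not share this, and the highest libraries there were castrated male 1 (263 CPM), castrated male 1 (231 CPM) and female 6 (52.6 CPM). Female 3 was among the lowest 3 at 19 loci and above the locus median at 0, and the library labelled female 10 was the lowest at 9. Female 6 was above the locus median at 1 locus and female 2 at 2, against 3 for the library labelled female 10 and 8 for that labelled castrated male 10. Castrated male 1 and castrated male 3 also had 8, and castrated male 2 had 9.

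**Figure D3:**
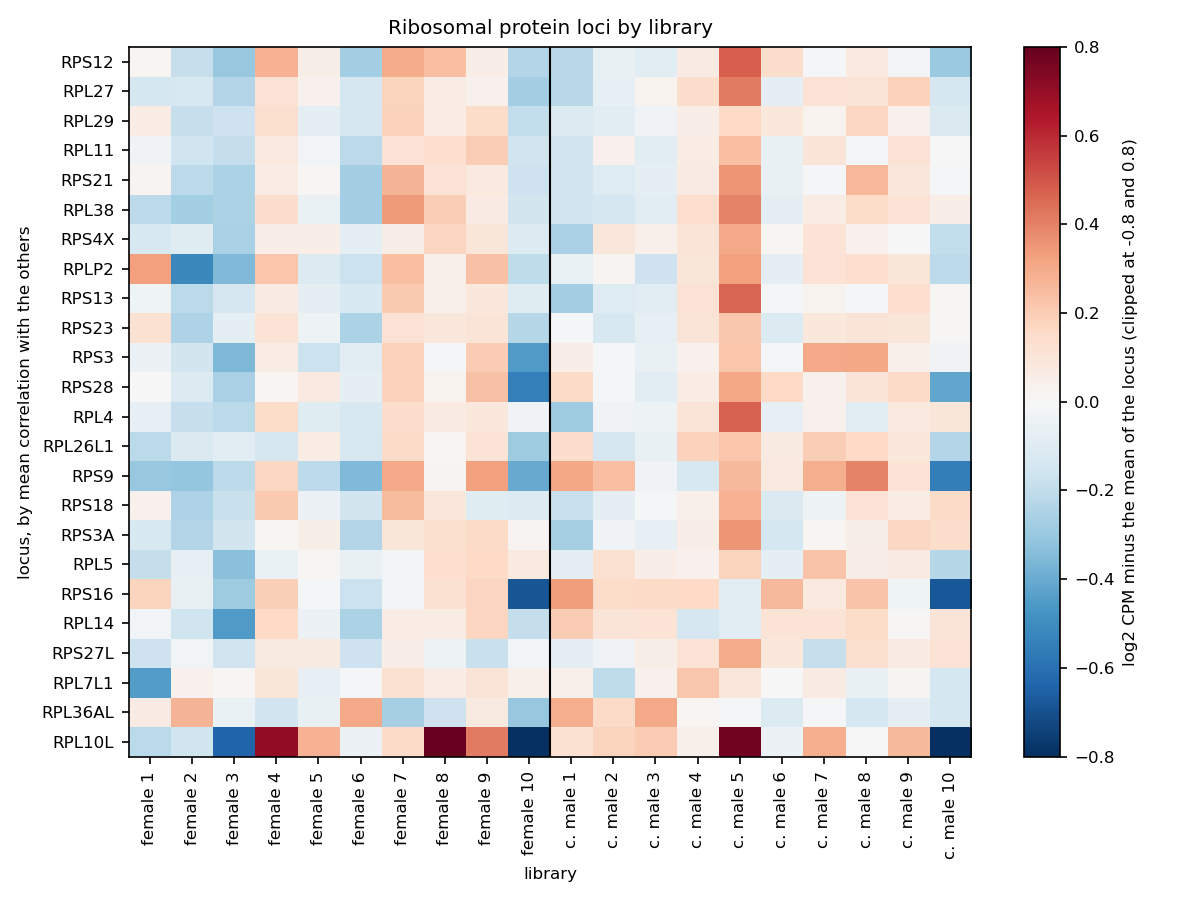
Log2 CPM of 24 loci in each library minus the mean of the locus, clipped at -0.8 and 0.8, with loci ordered by their mean correlation with the others and RPL10L last. Castrated male 5 is above the mean in most rows. Female 2, female 3, female 6 and the library labelled female 10 are below in nearly all. The library labelled castrated male 10 is below in most, as are female 1, castrated male 1, castrated male 2 and castrated male 3. RPL36AL follows another order.

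Single members varied less between animals than most loci did. The median residual SD of log2 CPM, after removal of sex means, was 0.165 over the 26 members of mean CPM of at least 10, against 0.262 over all 8769 loci of that level and 0.252 over the 1753 loci of at least 100 CPM. Of the 26, 24 lay under the median of all loci. The steadiest were RPS27L (0.118), RPL29 (0.128), RPL11 (0.133), RPS23 (0.138) and RPL5 (0.140). The most variable were RPS9 and RPS16 (both 0.280), RPLP2 (0.232), RPS12 (0.222) and RPS28 (0.212). For RPS16 and RPS28 this rested on the libraries numbered 10, without which they had 0.152 and 0.135. RPS9 kept 0.228 and RPLP2 0.233 without them. RPL10L, at a mean of 2.55 CPM, had a residual SD of 0.643, and 0.366 without them.

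The members varied together from animal to animal. Over the 325 pairs of the 26 members, the mean pairwise Pearson correlation of these residuals was 0.485, against 0.012 over all loci of at least 10 CPM and 0.040 over loci of at least 100 CPM. These are descriptions over 20 libraries, and within each library all loci share its depth and scaling. Of the pairs, 294 were above 0 and 191 above 0.5. The highest was RPL4 with RPS13, at 0.946. Pairs within the small subunit averaged 0.568, pairs between subunits averaged 0.474 and pairs within the large subunit, which hold the copies RPL26L1, RPL36AL and RPL7L1, averaged 0.362. Over the 22 genes other than the copies the mean was 0.608. The first principal component held 57.8% of the variance.

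Mean correlation with the other members was highest for RPS12 (0.644), and it was also high for RPL27 (0.641), RPL29 (0.633) and RPL11 (0.622). It was lowest for RPL36AL (-0.26), RPL7L1 (0.218), RPS27L (0.256), RPL14 (0.290) and RPS16 (0.305). Of these 5, 3 are named copies. Without the libraries numbered 10, RPS16 had 0.113 and RPL36AL -0.48.

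RPL36AL (ENSSSCG00000005006), a copy of the large subunit gene RPL36A, ran opposite to most of the family. It took part in 22 of the 31 pairs below 0, with the lowest value of all, -0.60, against RPS3A. Its CPM ran from 34.5 in the library labelled female 10 through a median of 41.6 to 52.6 in female 6. Female 7, whose summed CPM of 18981 was the highest of the females, had the lowest FPKM of RPL36AL, 19.2. Macrophage markers (6 loci of at least 10 CPM) averaged a correlation of 0.436 with RPL36AL and of -0.32 with all 26 members. Without castrated male 1 these were 0.320 and -0.30, and without the libraries numbered 10 they were 0.407 and -0.43. Ribosome assembly genes (20 loci) averaged 0.395 with RPL36AL and -0.044 with all members. Without the libraries numbered 10 these were 0.382 and -0.13, and without castrated male 1 they were 0.361 and -0.017. The macrophage markers summed to between 67.2 and 321 CPM among females and between 124 and 898 among castrated males, with MARCO under 1 CPM on average. The average with the members was 0.125 for adipocyte markers, and 0.064 without castrated male 1. It was -0.22 for T and NK cell markers, and -0.13 without castrated male 5. For fibroblast markers it was -0.12, and -0.20 without castrated male 1. Endothelial markers averaged -0.084, with -0.043 without castrated male 1 and -0.0089 without castrated male 5. Smooth muscle markers averaged 0.0012, with 0.024 without castrated male 1, -0.11 without castrated male 5 and -0.017 without the libraries numbered 10. No B cell marker reached 10 CPM. The part of cell makeup in the shared variation was not tested.

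At 6 of the 27 loci both libraries numbered 10 lay below all other 18 in CPM, and at 0 they lay above. Over all loci tested 4.47% lay below in this way and 2.2% above, and over loci of at least 10 CPM 7.75% and 3.3%. RPS16 had 114 and 115 CPM in the libraries labelled female 10 and castrated male 10, against 151 to 231 CPM in the other 18. RPS28 had 360 and 393 CPM against 438 to 652, and RPS9 had 395 and 356 CPM against 410 to 688. RPL26L1 and RPL10L were also among the 6, and both libraries lay below there by FPKM too. By FPKM the library labelled castrated male 10 was not below the others at RPS16, RPS28 or RPS9. It had 984 FPKM at RPS16 against 924 in female 3, and 2031 at RPS28 against 1774 in female 3. At RPS9 it had 770 FPKM against 691 in female 6. Both libraries lay below the other 18 by FPKM at RPL11, RPL5, RPS3A and RPS4X, so the loci depended on the scale. These libraries also had the lowest totals, and the part of depth was not tested.

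No difference between the sexes was called at any member. Of the 27 members, 0 passed an adjusted p of 0.05 between females and castrated males in edgeR's quasi-likelihood test, and the background was 0% (0 of 21587 loci). At an unadjusted p under 0.05 there were 0 members, against 4.33% of all loci. DESeq2 and limma on log2 FPKM also called 0 members. The estimate was lower in females at 26 of 27 members, against 49.1% of all loci, with a median of -0.063 on the log2 scale and a range from -0.19 to 0.010. Since the members vary together, their shared sign is not a count of independent events.

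RPS3 was the member of smallest p. Females had 484, 631 and 761 CPM as their lowest, median and highest values and castrated males 637, 680 and 821 CPM. The groups overlapped, with a log2 difference of -0.16 (SE 0.087, p = 0.078, adjusted p of 1, edgeR). RPS27L differed by -0.11 (SE 0.064) and RPL26L1 by -0.13 (SE 0.075), and neither passed the test. RPS9 had the lowest estimate, -0.19 (SE 0.12). RPS4X, which lies on the X chromosome, had -0.050 (SE 0.079), at 1488 ± 133 CPM for females against 1541 ± 167 CPM for castrated males (n = 10 each). RPL10L was the exception in sign at 0.010 (SE 0.26). Without the libraries numbered 10, 27 of 27 estimates were below 0, against 47.9% of loci. Then 0 members were called, against 0.0834% of loci, and 0 had an unadjusted p under 0.05, against 4.86%. Of the T and NK cell markers, 1 of 7 loci had an estimate above 0, with a median of -0.55. Of the macrophage markers 0 of 8 did, with a median of -0.59. None of these markers was called. With all 20 libraries, 4 T and NK cell loci and 4 macrophage loci had an unadjusted p under 0.05 in edgeR's test. The share over all loci was 4.33%. Their part in the sign of the members was not tested.

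**Figure D4:**
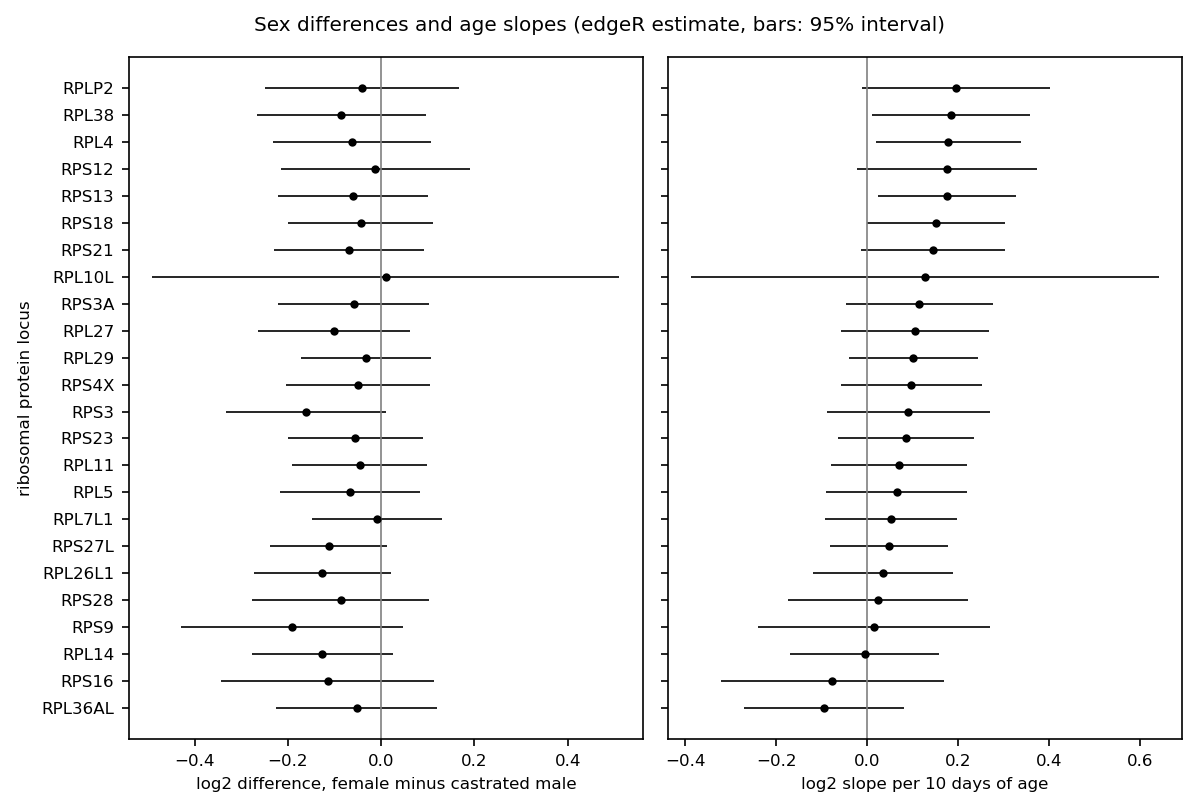
Estimate for each of 24 loci as a point with its 95% interval, for the log2 difference of females minus castrated males (left) and the log2 slope per 10 days of age with sex in the model (right). On the left 23 of 24 points lie below 0, on the right 21 lie above 0, and none passed an adjusted p of 0.05 in edgeR's test.

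Slopes on age were mostly upward and none was called. With sex in the model, 0 of 27 members passed an adjusted p of 0.05 in edgeR's quasi-likelihood test, with a background of 0% of 21587 loci. The slope was above 0 at 24 members, against 50.2% of all loci, with a median of 0.097 log2 units per 10 days. At an unadjusted p under 0.05 there were 2 members, against 5.51% of loci. RPS13 ran from 469 CPM in castrated male 1 (237 days) through a median of 560 to 779 CPM in castrated male 5 (249 days), and among females from 487 CPM in female 2 (235 days) to 654 CPM in female 7 (249 days). RPL4 had its lowest and highest values in the same castrated males, at 1411 and 2384 CPM, with a median of 1689. The 2 members were RPS13, at 0.18 per 10 days (SE 0.077, p = 0.033, adjusted p = 0.867, edgeR), and RPL4, at 0.18 (SE 0.081, p = 0.039, adjusted p = 0.867). RPL38 had 0.18 (SE 0.089) and RPLP2 the highest slope, 0.20 (SE 0.11). RPL36AL was highest in female 6, at 250 days, and lowest in the library labelled female 10, also at 250 days. The slopes below 0 were those of RPL36AL (-0.095, SE 0.090), RPS16 (-0.077, SE 0.12) and RPL14 (-0.0055, SE 0.084).

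How many slopes reached an unadjusted p under 0.05 depended on single libraries. Without the libraries numbered 10 there were 10, against 5.24% of loci, among them RPS13, RPS12, RPL38, RPLP2, RPL4, RPS18 and RPS21 with slopes of 0.18 to 0.25 and an adjusted p of 0.852 in edgeR for each. Then 26 of 27 slopes were above 0, against 51.3% of loci, with a median of 0.14. Without castrated male 5, the highest library and 249 days old, there were 0, against 1026 of 21751 loci. Its removal left 21 slopes above 0 and a median of 0.048. Without the library labelled female 10, 250 days old and among the lowest, 8 slopes had such a p, against 1107 of 21742 loci. All 8 macrophage marker loci had slopes below 0, with a median of -0.65 and 0 called, and their part in the slopes of the members was not tested.

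No difference in slope between females and castrated males was called at any member. The background for this difference was 0% of 21587 loci at an adjusted p of 0.05, with 0 members called and 0 at an unadjusted p under 0.05 against 5.42% of loci. The slope was lower in females at 22 of 27 members, against 48.3% of loci, and at 15 with the libraries numbered 10 left out, against 47.8%. Without these libraries too, 0 members had an unadjusted p under 0.05, against 5.75% of loci. The members of smallest p were RPS27L (-0.21, SE 0.13), RPL27 (-0.21, SE 0.17) and RPS13 (-0.16, SE 0.16) below 0, and RPL14 (0.17, SE 0.17), RPLP2 (0.14, SE 0.22) and RPS9 (0.14, SE 0.27) above.

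Other genes of translation were less closely tied to the members than these to each other. The list of other subunit genes and messengers with a pyrimidine tract held 18 genes, of which 11 had a locus, and it averaged a correlation of 0.150 with the members over its 12 loci. Of these 12, 0 passed in either comparison, 3 had a sex estimate above 0 and 8 a slope on age above 0, with medians of -0.078 and 0.033. RACK1, a protein of the small subunit outside the naming rule, had 1037 ± 101 CPM, a sex difference of -0.044 (SE 0.077) and a slope of 0.079 (SE 0.079). FAU, which encodes the small subunit protein eS30 fused to a ubiquitin-like protein, had 90.4 ± 19.6 CPM and a sex difference of 0.19 (SE 0.12). EIF3E, a subunit of initiation factor eIF3, had the smallest p, at -0.19 between the sexes (SE 0.087). Of 21 loci for ribosome assembly and ribosomal RNA synthesis, 0 passed, 3 had a sex estimate above 0 and 10 a slope above 0, with medians of -0.073 and -0.030. Of 14 loci for mTOR signalling to translation, 0 passed, 6 had a sex estimate above 0 and 6 a slope above 0, with medians of -0.039 and -0.039. The mean correlation of the mTOR loci with the members was -0.039, with -0.067 without the libraries numbered 10 and -0.0054 without castrated male 5.

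Isoform FPKM could be tied to 25 of the 27 loci, RPS13 not among them. Of the 25, 9 had a single isoform, RPL5, RPL14, RPS12 and RPS23 among them, and 16 had several. The leading isoform, that of highest mean share of the locus FPKM, held at least 90% in 6 of the 16. In 9 loci 2 or more isoforms held at least 10% each. In 6 loci, namely RPL11, RPL38, RPS16, RPS27L, RPS3 and RPS9, the leading isoform carried no Ensembl transcript identifier. RPS3 was the most evenly divided, with 40.4 ± 6.45% and 40.2 ± 5.55% for 2 isoforms without an identifier and 19.4 ± 6.25% for the Ensembl transcript (SD, n = 20). RPS16 held a steady division, with 86.5 ± 1.04% for an isoform without an identifier. In RPL27 the Ensembl transcript held 63.1 ± 7.42%, in RPS18 69.5 ± 2.93% and in RPS3A 84.8 ± 2.24%. Shares are estimates from reads that isoforms have in common, and their depth is not given by the files.

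**Figure D5:**
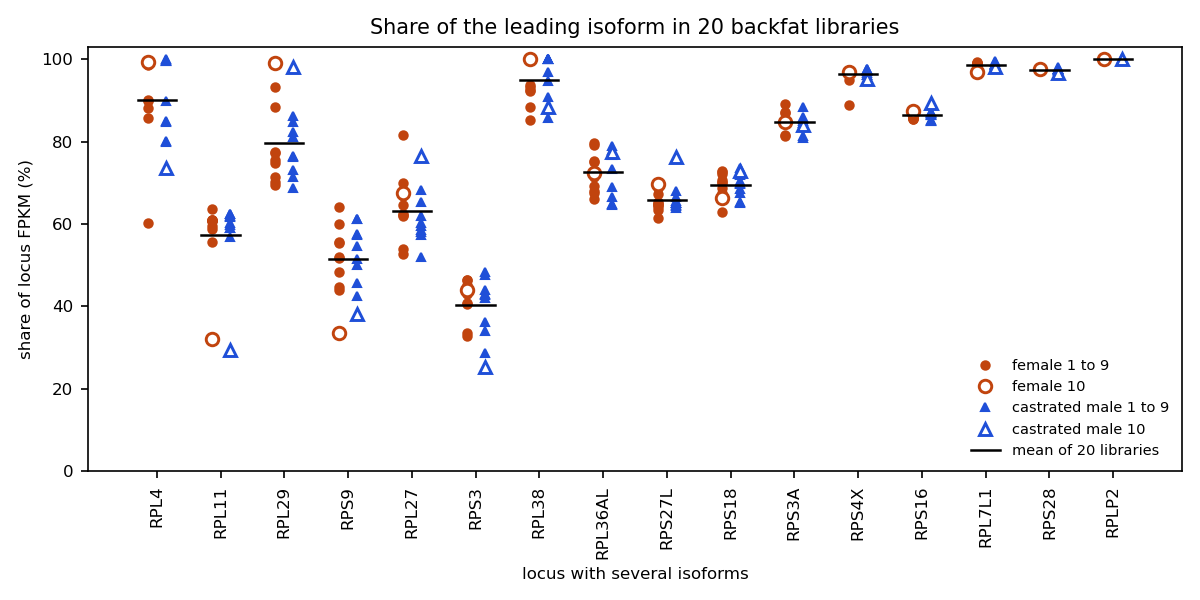
Share of the locus FPKM held by the leading isoform in every library for the 16 loci with several isoforms, with the libraries numbered 10 as open symbols and the mean of 20 libraries as a line. At RPL11 the open symbols lie at 32.0 and 29.3%, and the other 18 libraries lie between 55.6 and 63.6%.

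The libraries numbered 10 stood apart at some of these shares, a pattern chosen after its values were seen. At 4 of the 16 loci both lay outside the range of the other 18 on the same side, against 16.2% of the 4672 loci with several isoforms and a mean of at least 10 FPKM. At RPL11 (ENSSSCG00000024260) the leading isoform held 32.0 and 29.3% in the libraries labelled female 10 and castrated male 10, against 55.6 to 63.6% in the others, and the Ensembl transcript held 67.1 and 70.7% against 34.6 to 43.2%. At RPL29 the Ensembl transcript held 99.1 and 98.0%, against 68.8 to 93.3%. At RPS9 the leading isoform held 33.6 and 38.3% against 42.5 to 64.2%, and a further isoform without an identifier held 44.9 and 41.0% against 8.37 to 32.5%. At RPS27L the leading isoform held 69.6 and 76.2% against 61.4 to 68.7%. Outside these, RPL27, RPS18, RPS3A and RPL36AL had both libraries within the range of the other 18. The share of RPL4 held by its Ensembl transcript was 90.2 ± 10.9%, with its lowest value, 60.3%, in female 7.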

How the data were processed

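The authors deposited raw read counts per locus and FPKM per locus and per isoform for 20 libraries. Per the submitters' processing notes, the build was Sscrofa10.2 and the tools were Cufflinks 2.1.1, Bowtie2 2.1.0.0, TopHat2 2.0.8 and DESeq2, with no roles stated. The counter, annotation release, strandedness and assignment of multi-matching reads were not given in the sources used here. Gene symbols came from a table of names by Ensembl identifier.

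From the deposited counts, CPM were computed with TMM factors over the 21587 loci kept by filterByExpr. edgeR 4.0.16 quasi-likelihood fits (R 4.3.3) over all these loci tested sex, age (slope per 10 days, with sex) and their interaction, with Benjamini-Hochberg adjustment at 0.05. DESeq2 1.42.0, limma 3.58.1 on log2(FPKM + 0.1) and log2(FPKM + 1), other scalings and filters, and left-out libraries were alternatives. Log2 CPM for spread and correlation used a prior count of 2, with sex means removed and a minimum mean of 10 CPM. Isoforms were tied to a locus where a consecutive run of isoform FPKM summed to the locus FPKM in all 20 libraries, within a relative tolerance of 1e-04. The fits were tested on simulated data.

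The members and lists were chosen with earlier results of these data known. Members named were those highest and lowest by level, spread and likeness, the 3 of smallest p per direction, and the copies. No 2 libraries had identical counts (190 pairs). Library totals of 25754778 to 51248122 counts set the depth. Each animal gave 1 library, so p-values measure the spread between animals.

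Some members enter the counts, sums and averages but are not reported here by name or shown in the figures.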

Additional observations from a re-analysis of the deposited data

Results flagged for a closer look

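In each sex the highest and lowest of the 10 libraries were compared with the nearest of the others, over 56 groups of CPM values and 32 groups of isoform shares. A gap above Dixon's 95% critical value for 10 samples was met in 15 of the 88 groups, and chance gives about 1 in 20, or 4.4. The members vary together and enter the sum, so the groups are not independent and an excess over 4.4 was not tested.

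Castrated male 5 stood above the other castrated males at the summed CPM of the 27 loci (21257, next 18349), RPL4 (2384, next 1853), RPS12 (1326, next 1049), RPS13 (779, next 620) and RPL38 (587, next 494 CPM). The library labelled castrated male 10 stood below at RPS16 (115, next 172 CPM) and RPL10L (0.641, next 2.28 CPM). Female 1 stood below the other females at RPL7L1, the assembly factor, with 63.8 CPM (next 83.2).

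For isoforms, the leading share of RPL11 was low in the library labelled female 10 (32.0%, next 55.6%) and in the library labelled castrated male 10 (29.3%, next 56.8%). The latter was high for RPS16 (89.3%, next 87.2%) and RPS27L (76.2%, next 68.0%). Female 7 was low for RPL4 (60.3%, next 85.7%), female 6 for RPS28 (97.2%, next 97.4%) and female 1 for RPS4X (89.0%).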

How the results depend on the processing

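Of the recomputed values, 346 were taken as kept, 23 moved and 9 reversed. An estimate was kept if its direction and its side of the threshold stayed. A mean or median was kept if it moved by less than the spread, and a count of members if it stayed within a set fold of the main count. In every alternative 0 of 27 members were called for sex, age or their interaction. Members at an unadjusted p under 0.05 for sex numbered 0, 1 with age added and 0 to 2 with each library left out in turn (2 without the library labelled castrated male 10). For age they numbered 2, 4 in DESeq2, 1 and 1 with limma on log2(FPKM + 0.1) and log2(FPKM + 1), 10 without both libraries numbered 10, and 0 to 8 with each library left out, 1 of them without castrated male 1. There were 0 without female 2, female 7 or castrated male 5, and 8 without female 6 or the library labelled female 10. Loci at that p for age also varied. They numbered 1411 of 21587 in DESeq2, and 814 and 807 of 15934 with limma. Without single libraries they numbered 737 of 21798 (female 2), 1174 of 21753 (female 7) and 1637 of 21767 (female 6). Without castrated male 1 they numbered 1024 of 21757. For sex, loci numbered 784 of 21587 with age added and 1110 of 21771 without the library labelled castrated male 10. Reversed estimates were all close to 0. RPL10L by sex was -0.036 with age added, -0.00066 without the libraries numbered 10, and -0.0070 and -0.0088 with limma. RPS16 by age was 0.012 without the libraries numbered 10. RPL14 by age was 0.018 without them, 0.0020 in DESeq2, 0.015 with upper-quartile factors and 0.010 without castrated male 1. The cause was not tested. The median residual SD was 0.208 on FPKM. The mean sum was 20283 CPM without mitochondrial loci, since fewer counts then make up the total, and 28834 as FPKM, another unit. Lower sex-by-age slopes in females numbered 15, not 22, with library totals alone, a change that the rule for counts still took as kept. No paired analysis was possible because the labels carry no replicate numbers that link a female to a castrated male.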
